A study of Neurospora crassa with 6 samples.

Results

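The 6 genes described here encode catalases and superoxide dismutases of the filamentous fungus Neurospora crassa: cat-1 (NCU08791), cat-2 (NCU05770), cat-3 (NCU00355), cat-4 (NCU05169), sod-1 (NCU02133) and sod-2 (NCU01213). They were taken by gene ID, with no threshold on a measured value, and are 6 of the 9691 genes measured. Wild-type conidia, the asexual spores, were grown in liquid culture for 6 h. Staurosporine (20 µM) or its solvent DMSO was then present for 1 h. Staurosporine is a broad inhibitor of protein kinases that triggers cell death in this fungus. The 6 groups were staurosporine in 0 Ca2+ medium, in standard minimal medium and in 20 mM CaCl2 medium, and DMSO in the same 3 media. Each group is 1 poly(A) RNA library of the wild-type strain, so no value in 1 medium has a replicate error. The calcium content of standard medium is not given in the labels. The design crosses the drug with the calcium supply of the medium.

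Superoxide dismutases turn superoxide into hydrogen peroxide and oxygen, and catalases break hydrogen peroxide down to water and oxygen. In N. crassa, CAT-1 and CAT-3 are large-subunit heme catalases, CAT-1 being abundant in conidia and CAT-3 the main catalase of growing hyphae. CAT-2 is a catalase-peroxidase, and CAT-4 is a small-subunit catalase of the kind found in peroxisomes. SOD-1 is the cytosolic copper and zinc enzyme and SOD-2 a mitochondrial manganese enzyme. The tables annotate NCU05169 as catalase 2 and NCU05770 as peroxidase/catalase 2; the RefSeq gene table of assembly NC12 names them cat-4 and cat-2, and those names are used here.

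Levels are FPKM, fragments scaled to transcript length and library size, as the authors deposited them, and can be set side by side between genes. Summed over all genes they came to 696047, 500315 and 666121 in the staurosporine libraries of 0 Ca2+, standard and 20 mM CaCl2 medium, and to 953522, 940590 and 1001098 in the DMSO libraries in the same order. Rescaling every library to the same sum shifts the staurosporine ratios upward by 0.43, 0.87 and 0.55 (log2) in those media. Some directions depend on it, and not every such case is named below. Read depth is unknown. In bulk libraries, fewer cells of a type and less RNA per cell cannot be told apart.

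The 3 staurosporine libraries held more cat-1 and cat-2 RNA and less cat-3 RNA than the 3 DMSO libraries. For cat-1, the conidial catalase, FPKM were 69.1, 37.4 and 11.2 with staurosporine in 0 Ca2+, standard and 20 mM CaCl2 medium, against 10.6, 2.88 and 2.55 with DMSO. Every staurosporine library lay above every DMSO library, although the lowest treated value, in 20 mM CaCl2, was close to the DMSO value in 0 Ca2+ medium. For cat-3, the hyphal catalase, FPKM were 7.98, 2.12 and 10 with staurosporine, against 50.8, 37.4 and 45.8 with DMSO. The treated and DMSO libraries of cat-3 lay far apart, and the lowest level was that of staurosporine in standard medium. For cat-2, the catalase-peroxidase, FPKM were 9.93, 4.85 and 1.64 with staurosporine, against 1.29, 1.02 and 1.05 with DMSO. Its DMSO levels were near the limit of the filter used below, and the treated level in 20 mM CaCl2 medium stood only slightly above them.

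The levels of cat-4 and of both dismutases differed less. For cat-4 they were 4.51, 5.52 and 7.36 FPKM with staurosporine, against 7.17, 5.75 and 4.58 FPKM with DMSO. The groups overlapped, and the order over the media ran in opposite directions with and without the drug as deposited. With equal FPKM sums the treated levels were 6.48, 11 and 11, so standard and 20 mM CaCl2 medium were level. For sod-1 they were 1596, 914 and 886 FPKM with staurosporine, against 2061, 1924 and 1590 FPKM with DMSO. Only the treated library of 0 Ca2+ medium, at 1596, reached into the DMSO range. For sod-2, FPKM were 21.8, 23.8 and 22.4 with staurosporine, against 33.5, 28.6 and 31.6 with DMSO, with no overlap. In every library sod-1 was by far the most abundant of the 6 transcripts, above at least 98.5% of genes, while cat-1 lay above 88.1%, 80.4% and 58.0% of genes with staurosporine and above 54.1%, 37.3% and 34.7% with DMSO. The share of genes below cat-3 was 51.0%, 32.0% and 55.3% with staurosporine and 83.2%, 79.7% and 82.2% with DMSO.

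**Figure D1:**
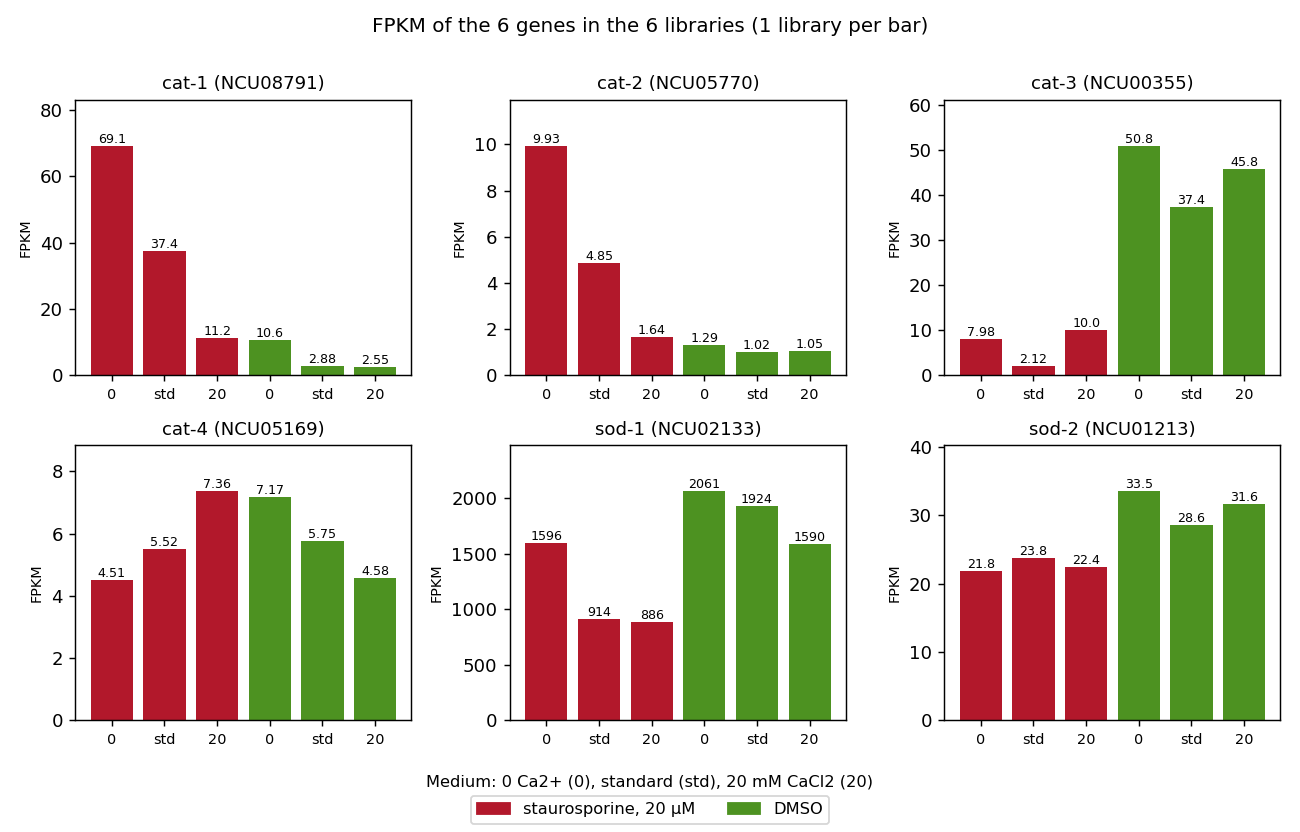
FPKM (vertical axis, own scale per gene) of each gene in the 6 libraries, 1 bar per library, staurosporine in red and DMSO in green, with the media along the horizontal axis. The staurosporine bars of cat-1 run between 11.2 and 69.1 and its DMSO bars between 2.55 and 10.6, while those of cat-3 run between 2.12 and 10 with staurosporine and 37.4 and 50.8 with DMSO.

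Of the 6 genes, cat-1 and cat-2 lay higher and cat-3 and sod-2 lower in all 3 staurosporine libraries than in any DMSO library. Over the 7415 genes whose mean FPKM reached 1, 22.3% had groups that did not overlap, 7.5% higher and 14.8% lower. With each library rescaled to the same FPKM sum, cat-1 and cat-2 stayed higher and cat-3 lower in that sense, against 29.7% of genes higher and 2.76% lower, whereas sod-2 overlapped, at 31.3, 47.6 and 33.7 with staurosporine and 35.1, 30.4 and 31.6 with DMSO.

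Ratios were taken as log2((FPKM + 1) ratio), a scale that understates the difference of low genes such as cat-2, and a gene was counted as higher or lower in a comparison of 2 libraries at an absolute value of at least 1. In standard medium cat-1 had a log2 ratio of 3.30, a 13-fold higher FPKM with staurosporine, and ranked 32nd from the top of 7167 genes. There cat-3 had -3.62 and ranked 30th from the bottom, with an FPKM 17.6-fold lower with staurosporine. The ratios of cat-2 and sod-1 were 1.53 and -1.07. So 2 members were counted as higher and 2 as lower, where 13.4% of all genes were higher and 14.9% lower. The sod-1 call was lost with equal FPKM sums, at -0.16, and kept with each library centred on its median, at -1.05.

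In 0 Ca2+ medium the log2 ratios of staurosporine over DMSO were 2.60 for cat-1, 2.25 for cat-2 and -2.53 for cat-3. These were 2 higher and 1 lower, where 18.7% of genes were higher and 20.9% lower, so ratios of this size were more common than in standard medium. In 20 mM CaCl2 medium cat-1 had a ratio of 1.78 and cat-3 one of -2.09, which gave 1 higher and 1 lower where only 2.62% of genes were higher and 6.16% lower. There cat-1 was 42nd from the top and cat-3 41st from the bottom of 7204 genes, and cat-2 had a ratio of 0.37. The ratios of sod-1 in 0 Ca2+, standard and 20 mM CaCl2 medium were -0.37, -1.07 and -0.84, and those of sod-2 were -0.60, -0.25 and -0.48. With equal FPKM sums they were 0.08, -0.16 and -0.26 for sod-1 and -0.16, 0.63 and 0.09 for sod-2. Neither dismutase kept its direction in every medium under that scaling. With each library centred on its median, both stayed negative, at -0.15, -1.05 and -0.58 for sod-1 and -0.38, -0.23 and -0.22 for sod-2.

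The authors' deposited tables, which compare single libraries, call cat-1 and cat-3 significant in all 3 staurosporine comparisons, cat-2 in 0 Ca2+ and standard medium, and sod-1 in standard medium with a q value of 0.0148. Among genes testable there, 35.9%, 26.7% and 6.14% were called in 0 Ca2+, standard and 20 mM CaCl2 medium. In the authors' deposited table the log2 ratio of cat-2 was 2.94 in 0 Ca2+ medium and 2.24 in standard medium, larger than on the FPKM + 1 scale, and in 20 mM CaCl2 medium it was 0.64 and not called.

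The effect of staurosporine was tested over the media as repeats, with limma fitted to all 7415 genes with terms for medium and agent and p-values adjusted by Benjamini-Hochberg. None of the 6 genes passed an adjusted p below 0.05, and 12 genes (0.162%) did so with an absolute log2 ratio of at least 1. The mean log2 ratio of cat-3 was -2.74 (moderated SE 0.41, 95% interval -3.73 to -1.76), with the same direction in 3 of 3 media and an adjusted p of 0.136 in limma. That of cat-1 was 2.56 (SE 0.41, interval 1.58 to 3.54), also in 3 of 3 media, with an adjusted p of 0.169 in limma. Ranked by unadjusted p, cat-3 was 20th and cat-1 23rd of 7415 genes, and with cat-2 they were the members with an unadjusted p below 0.05, as were 1047 of all genes. For cat-2 the mean was 1.38 (SE 0.46) and limma's adjusted p 0.293. For sod-1 it was -0.76 (SE 0.35, interval -1.60 to 0.08) and for sod-2 -0.44 (SE 0.33, interval -1.23 to 0.34), with adjusted p of 0.384 and 0.576 in limma. For cat-4 it was -0.01 with an interval of -0.93 to 0.91, wide enough to hold a difference of almost 2-fold either way.

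Which genes passed depended on the pairs entering the test. Without the 20 mM CaCl2 pair, cat-1 (2.95) and cat-3 (-3.07) both passed, each at an adjusted p of 0.0104 in limma, with 576 genes called in all. Without the 0 Ca2+ pair cat-3 passed (adjusted p = 0.0414 in limma) and cat-1 did not (0.0541), with 32 genes called. Without the standard pair no gene passed, 224 had an unadjusted p below 0.05, and cat-1 and cat-3 had means of 2.19 and -2.31. With equal FPKM sums cat-1 passed, with a mean of 3.20 and an adjusted p of 0.0215 in limma, and cat-3 had 0.0911. Their mean ratios kept their direction in each of these settings.

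**Figure D2:**
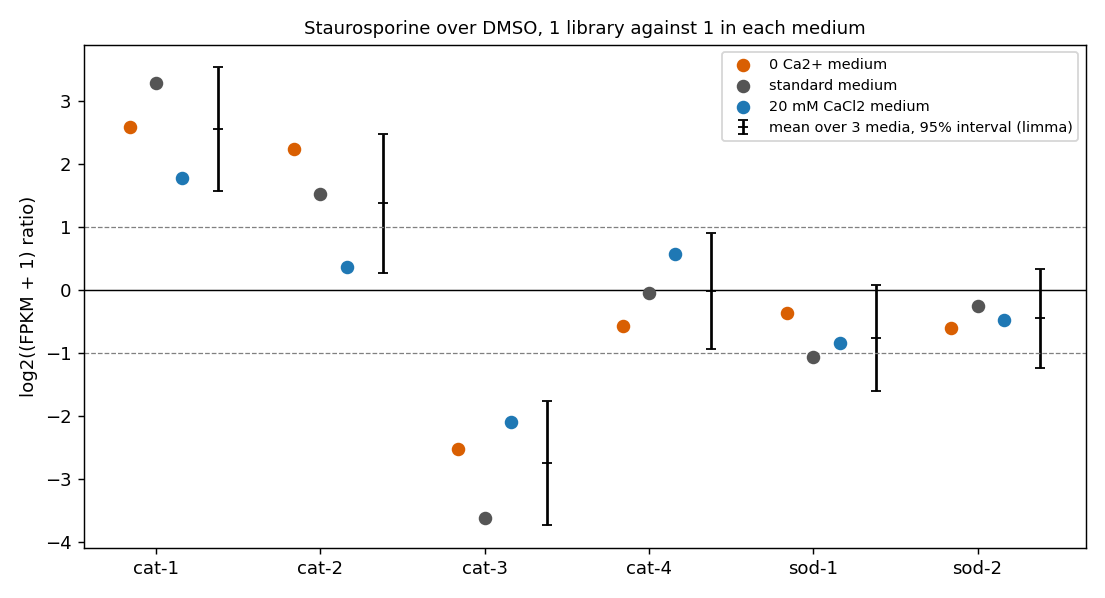
Log2 ratio of FPKM + 1, staurosporine over DMSO (vertical axis), for each gene in the 3 media (coloured points), with limma's mean over the media and its 95% interval (black). Dashed lines mark absolute values of 1. The 3 points of cat-1 lie between 1.78 and 3.30, those of cat-3 between -3.62 and -2.09, and those of cat-4 on both sides of 0.

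The make-up of the catalase transcripts differed between the agents more than their sum did. Taking the 4 catalases together, cat-1 made up 75.5%, 74.9% and 37.1% of their summed FPKM with staurosporine in 0 Ca2+, standard and 20 mM CaCl2 medium, against 15.2%, 6.12% and 4.73% with DMSO. The share of cat-3 was 8.71%, 4.26% and 33.2% with staurosporine, against 72.7%, 79.5% and 84.8% with DMSO. So cat-3 was the leading catalase transcript in every DMSO library and cat-1 in every staurosporine library, although in 20 mM CaCl2 medium with the drug the pair stood nearly level. These shares do not depend on how a library is scaled.

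The summed FPKM of the 4 catalases was 91.5, 49.9 and 30.2 with staurosporine, against 69.8, 47.1 and 54.0 with DMSO, so these ranges overlapped. The ratio of the sums, staurosporine over DMSO, was 1.31 in 0 Ca2+, 1.06 in standard and 0.56 in 20 mM CaCl2 medium. With equal FPKM sums it was 1.8, 1.99 and 0.842. Within a library, cat-1 stood at 8.67, 17.6 and 1.12 times the FPKM of cat-3 with staurosporine, against 0.208, 0.077 and 0.0558 times with DMSO. The treated value was 41.6-fold higher in 0 Ca2+, 229-fold in standard and 20.1-fold in 20 mM CaCl2 medium. This ratio was chosen after the values were seen and was not tested.

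**Figure D3:**
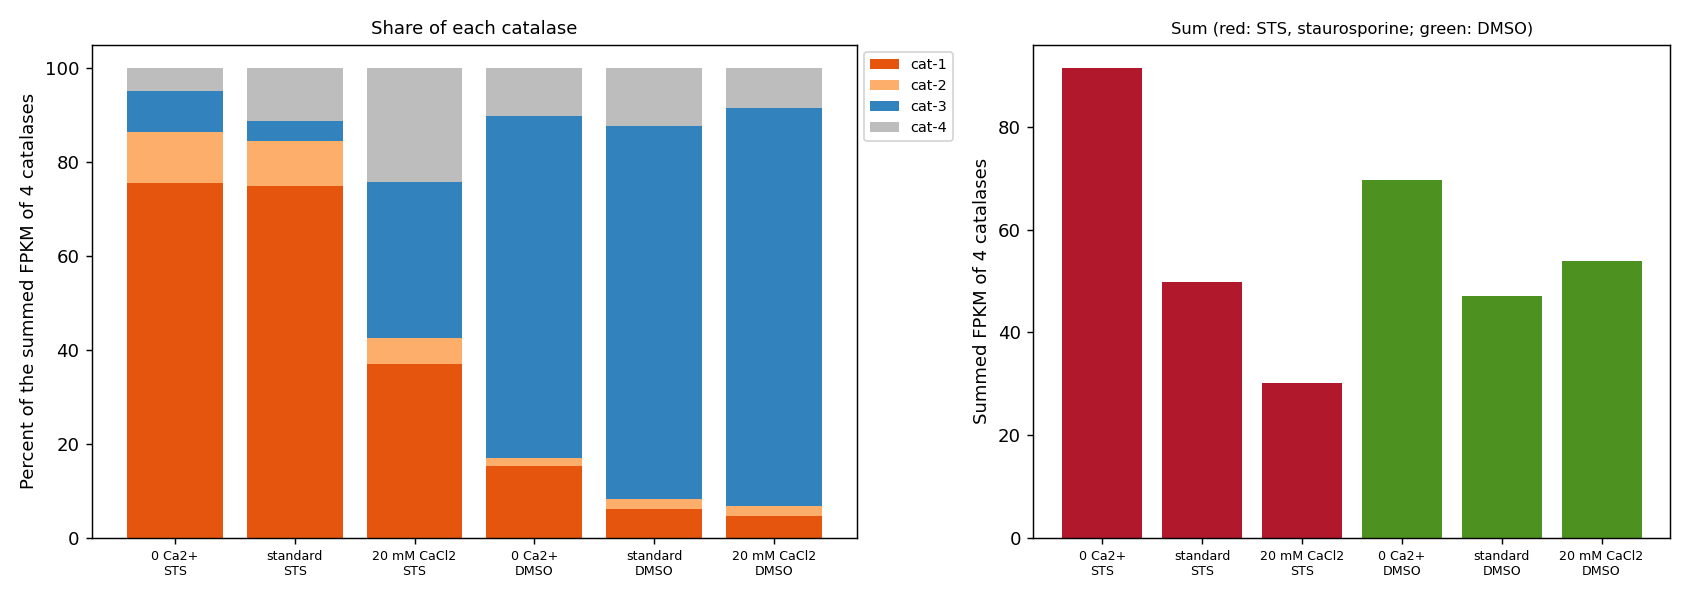
Left, percent of the summed FPKM of the 4 catalases contributed by each, per library; right, the sum itself in FPKM. Bars are single libraries, staurosporine (STS) left of DMSO. The share of cat-1 is 75.5%, 74.9% and 37.1% in the staurosporine bars and at most 15.2% in the DMSO bars, while the sums of both agents overlap.

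Without the drug, the calcium media differed mainly in cat-1. In the DMSO library of 0 Ca2+ medium cat-1 was at 10.6 FPKM, against 2.88 FPKM in standard medium, a log2 ratio of 1.58 and 51st from the top of 7079 genes. It was the single member counted in this comparison, where 2.99% of genes were higher and 2.33% lower. With a q value of 0.00402 it is also called in the authors' deposited table, as were 3.94% of genes testable there. The other 5 genes had ratios between 0.10 and 0.43. In the 20 mM CaCl2 DMSO library no member was counted, where 2.12% of genes were higher and 0.801% lower. The ratios to standard medium there lay between -0.27 for sod-1 and cat-4 and 0.28 for cat-3.

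With staurosporine, the 3 catalases that separated the agents differed between media as well. In 20 mM CaCl2 medium, cat-1 and cat-2 were lower than in standard medium, with log2 ratios of -1.65 and -1.15, and cat-3 was higher, with 1.82. These were 1 member higher and 2 lower, where 12.1% of genes were higher and 12.5% lower. In 0 Ca2+ medium with the drug, cat-3 was again higher than in standard medium, with a ratio of 1.52, in a comparison where 18.6% of genes were higher and 17.9% lower. There cat-1, cat-2 and sod-1 had ratios of 0.87, 0.90 and 0.80. Standard medium thus held the lowest cat-3 level under staurosporine, while cat-1 and cat-2 followed the order 0 Ca2+, standard, 20 mM CaCl2. The comparisons within an agent share their standard library, so the cat-3 ratios of 1.52 and 1.82 have the same low value of 2.12 FPKM as denominator.

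Tested with limma over both agents as repeats, no member passed for 0 Ca2+ against standard, 20 mM CaCl2 against standard or 20 mM CaCl2 against 0 Ca2+, and 0 of 7415 genes (0%) did so in any of them. Unadjusted p below 0.05 were held by 218, 125 and 685 genes. The largest member difference was that of cat-1 between 20 mM CaCl2 and 0 Ca2+ medium, a mean log2 ratio of -2.11 (SE 0.50) with an unadjusted p of 0.00448 and an adjusted p of 0.448 in limma. In 0 Ca2+ against standard medium cat-1 had 1.22 (SE 0.50), and cat-3 had 0.98 there and 1.05 in 20 mM CaCl2 against standard medium (SE 0.51 each).

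Whether the staurosporine ratio itself differed between media could not be tested, since each combination of agent and medium is 1 library. In 20 mM CaCl2 against standard medium the ratio was smaller by 1.52 (log2) for cat-1, at 1.78 and 3.30, and closer to 0 by 1.54 for cat-3, at -2.09 and -3.62. Of 7415 genes, 11.4% and 11.2% had a larger absolute difference between these media. Between 0 Ca2+ and standard medium the differences were -0.71 for cat-1 and 1.09 for cat-3, exceeded by 51.7% and 32.7% of genes. Among the members the difference was largest for cat-2 in 20 mM CaCl2 against 0 Ca2+ medium. It was -1.89, at 0.37 and 2.25, exceeded by 18.5% of genes, and the DMSO levels of cat-2 were near the filter. There cat-1 and cat-3 differed by -0.82 and 0.44.

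**Figure D4:**
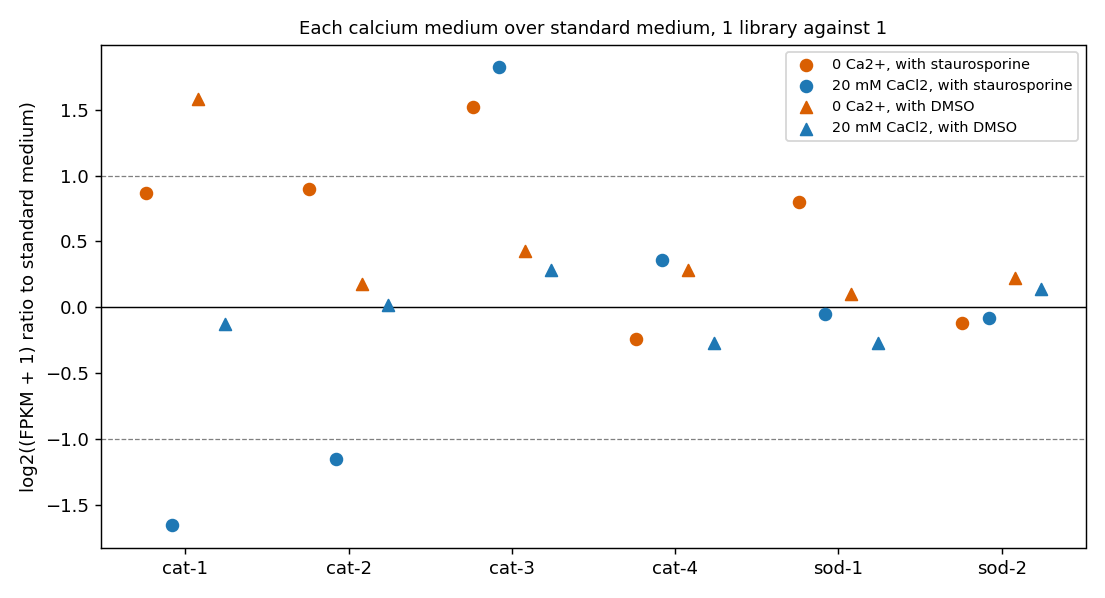
Log2 ratio of FPKM + 1 of each calcium medium over standard medium (vertical axis), with staurosporine (circles) and with DMSO (triangles), 1 library against 1. With staurosporine in 20 mM CaCl2 medium cat-1 is at -1.65 and cat-3 at 1.82, whereas with DMSO the point farthest from 0 is cat-1 in 0 Ca2+ medium at 1.58.

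Other superoxide dismutase genes annotated in the tables are NCU07386, an iron superoxide dismutase by its annotation, and NCU09560. FPKM of NCU07386 were 61.8, 57.4 and 135 with staurosporine in 0 Ca2+, standard and 20 mM CaCl2 medium, against 238, 258 and 209 with DMSO. Its groups did not overlap, and its mean log2 ratio was -1.57 (SE 0.41) with an adjusted p of 0.292 in limma. FPKM of NCU09560 were 327, 168 and 198 with staurosporine, against 340, 289 and 285 with DMSO. Its mean log2 ratio was -0.45 (SE 0.34), and 0.19 with equal FPKM sums, whereas that of NCU07386 was -0.93 there.

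Superoxide is produced on purpose by NADPH oxidases. The gene of the catalytic subunit NOX-1 was at 21.4, 32.5 and 90.6 FPKM with staurosporine, against 71.2, 113 and 96.7 FPKM with DMSO, so the treated level was low in 0 Ca2+ and standard medium and near the DMSO level in 20 mM CaCl2. The regulator gene nor-1 had 15, 21 and 41.7 FPKM with staurosporine, against 45.1, 57.4 and 56.1 FPKM with DMSO. For nox-2, the other catalytic subunit, the values were 32.3, 23.7 and 16 FPKM with staurosporine and 13.4, 13 and 14.9 FPKM with DMSO. Their mean log2 ratios over the media were -1.18, -1.12 and 0.71, and none of the 3 passed in limma (adjusted p = 0.321, 0.295 and 0.433); with equal FPKM sums they were -0.55, -0.49 and 1.34.

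Hydrogen peroxide is also removed by peroxiredoxins and peroxidases, in part with thioredoxin and glutathione. The 17 genes listed here are peroxiredoxins, cytochrome c peroxidase, thioredoxins, glutaredoxins, their reductases and glutathione synthesis genes. Of the 17, 0 passed in limma and 3 had an unadjusted p below 0.05, as did 14.1% of all genes tested. The median of their mean log2 ratios was -0.39, against -0.03 over all genes tested, and with equal FPKM sums 0.24, against 0.55. The gene of the glutamate-cysteine ligase catalytic subunit, NCU01157, which makes the first step of glutathione synthesis, was at 2.48, 9.45 and 61.1 FPKM with staurosporine, against 42.8, 59.9 and 43.2 FPKM with DMSO. The thioredoxin reductase gene cys-9 was at 31.3, 40.1 and 89.6 FPKM with staurosporine, against 155, 140 and 163 FPKM with DMSO. The peroxiredoxin gene NCU09534 and the glutaredoxin gene NCU04098 had mean log2 ratios of -0.94 (SE 0.33) and -0.77 (SE 0.40). All 4 kept a negative mean with equal FPKM sums, between -1.32 and -0.13.

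Catalases carry heme, and SOD-1 carries copper delivered by a chaperone. Of 10 genes of heme synthesis, copper chaperones and metallothionein, 0 passed in limma, 6 had an unadjusted p below 0.05 (14.1% of all genes), and 7 were lower in every staurosporine library than in any DMSO library, where 14.8% of all genes were. Their median mean log2 ratio was -0.97, against -0.03 over all genes tested. With equal FPKM sums it was -0.32, against 0.55, with 3 of the 10 lower in that sense against 2.76% of all genes. The gene of 5-aminolevulinate synthase, NCU06189, the entry enzyme of heme synthesis, was at 21, 17.5 and 27 FPKM with staurosporine, against 60.3, 56.7 and 47.7 FPKM with DMSO. Coproporphyrinogen oxidase (NCU01546), the copper chaperone Cox17 (NCU02530) and uroporphyrinogen decarboxylase (NCU02771) had mean log2 ratios of -1.15, -1.11 and -1.07. The SOD-1 copper chaperone gene NCU07851 was at 80.5, 37.4 and 22.5 FPKM with staurosporine, against 52.4, 40.2 and 38.2 FPKM with DMSO. It was therefore above its DMSO level in 0 Ca2+ medium and below it in 20 mM CaCl2.

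Known regulators of cat-1 in N. crassa include the OS-2 MAP kinase pathway and the transcription factor ASL-1. Of the 8 genes listed as regulators, 0 passed in limma and 0 had an unadjusted p below 0.05. Their median mean log2 ratio was 0.01, or 0.64 with equal FPKM sums, against -0.03 and 0.55 over all genes tested. The kinase gene os-2 was at 84.7, 54.3 and 65.7 FPKM with staurosporine, against 115, 116 and 114 FPKM with DMSO, and it was the single gene of the 8 whose groups did not overlap, against 22.3% of all genes. With equal FPKM sums its groups overlapped, and those of rrg-1, os-5 and NCU03905 did not, all 3 higher with staurosporine, as were 29.7% of all genes. FPKM of asl-1 were 7.47, 15.1 and 29 with staurosporine, against 20.3, 16 and 12 with DMSO. Its order over the media was thus opposite with and without the drug, as for the deposited values of cat-4. The pathway genes os-1 (histidine kinase), rrg-1 (response regulator), os-4 and os-5 (upstream kinases) had mean log2 ratios of 0.09, -0.07, 0.22 and 0.36. Those of rrg-2, a response regulator, and NCU03905, annotated only as a hypothetical protein, were -0.55 and 0.13. With equal FPKM sums the means of rrg-1, rrg-2 and asl-1 turned positive, at 0.54, 0.07 and 0.55, none above the all-gene median of 0.55.

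CAT-1 is abundant in conidia, so markers of conidia and conidiation were read in the same libraries. Of the 5 conidiation genes taken as markers, con-10 was the single one whose groups did not overlap, at 35.1, 7.14 and 4.03 FPKM with staurosporine in 0 Ca2+, standard and 20 mM CaCl2 medium, against 2.44, 1.11 and 1.3 FPKM with DMSO. The same 1 of 5 lay higher with equal FPKM sums, and over all genes 7.5% were higher in that sense as deposited and 29.7% with equal sums. FPKM of con-6 were 42.2, 4.63 and 1.28 with staurosporine, against 2.47, 1.70 and 2.59 with DMSO, and those of con-8 were 10.3, 5.05 and 0.972 with staurosporine, against 1.15, 0.99 and 2.05 with DMSO. The spore-wall hydrophobin gene eas was at 7.95, 39.4 and 52.2 FPKM with staurosporine, against 2.10, 18.0 and 69.7 FPKM with DMSO. The marker con-13 was listed at 0 in 3 libraries and reached 0.964 FPKM in 0 Ca2+ medium with the drug. The summed FPKM of the 5 ranged between 56.3 and 96.6 with staurosporine and between 8.16 and 75.7 with DMSO. Under staurosporine con-6, con-8 and con-10 had the same order over the media as cat-1, as had con-13 at its low levels. The order of eas was the opposite. With DMSO, con-6, con-8 and eas were highest in 20 mM CaCl2 medium, where cat-1 was lowest. In 0 Ca2+ medium with DMSO, con-6, con-8 and con-10 were higher than in standard medium, as cat-1 was, while eas and con-13 were lower. For con-8 that difference was small, at 1.15 against 0.99 FPKM. The sum of the 5 markers was 8.16 FPKM in the 0 Ca2+ DMSO library, against 21.9 FPKM in standard medium, a difference made by eas. The part of conidia or conidiation in the cat-1 levels was not tested. With the clock-controlled genes ccg-1 and ccg-9 the list has 7 genes, of which con-13 and ccg-9 were below the filter. Of the 5 tested, 0 passed in limma and 1 had an unadjusted p below 0.05, as did 14.1% of all genes tested. Their median mean log2 ratio was 1.12, or 1.66 with equal FPKM sums, against -0.03 and 0.55 over all genes tested. FPKM of ccg-1 were 465, 217 and 130 with staurosporine, against 240, 146 and 149 with DMSO, so it was above its DMSO level in 0 Ca2+ and standard medium and below it in 20 mM CaCl2. Those of ccg-9 were 1.7, 0.717 and 1.11 with staurosporine, against 0.423, 0.353 and 0.367 with DMSO.

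**Figure D5:**
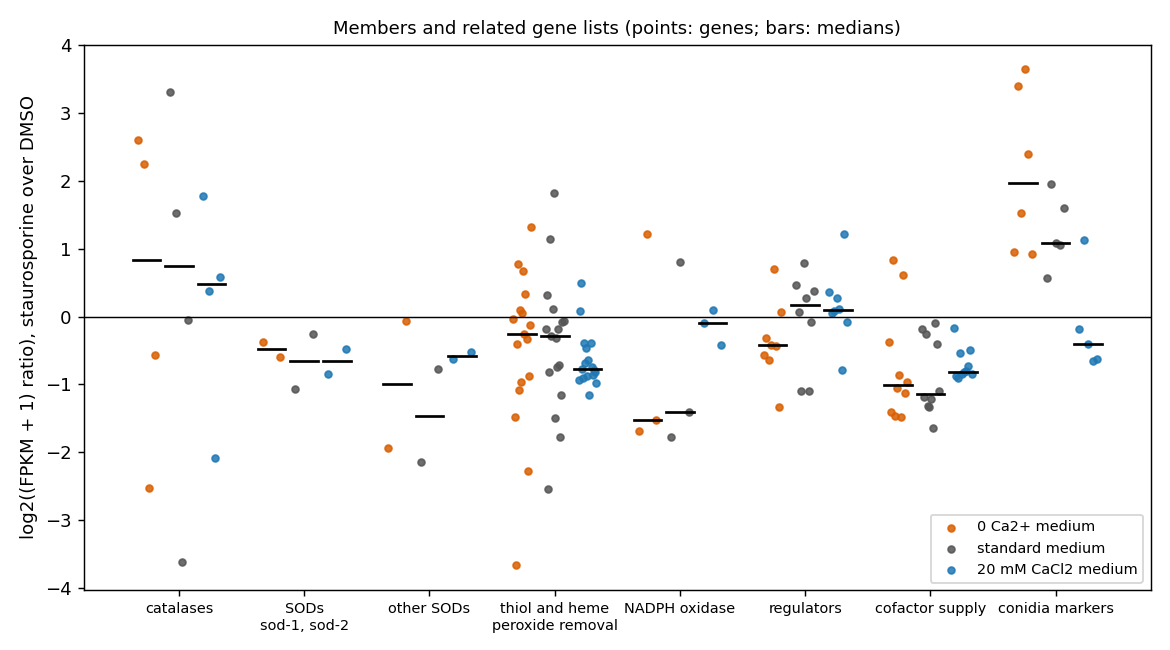
Log2 ratio of FPKM + 1, staurosporine over DMSO (vertical axis), of single genes averaging 1 FPKM or more in the libraries compared (points) in the 3 media (colours), with the median of each list (black bars); lists along the horizontal axis. The catalases spread between -3.62 and 3.30, while the cofactor supply genes have medians of -1.14 in standard and -0.81 in 20 mM CaCl2 medium.

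Over the 6 libraries, cat-1 and cat-2 varied together with a Pearson r of 0.939 on log2(FPKM + 1), and cat-1 and cat-3 in opposite directions with -0.785; with equal FPKM sums these were 0.959 and -0.850. Between cat-3 and the dismutases r depended on the scaling: it was 0.797 for sod-1 and 0.846 for sod-2 as deposited, and 0.092 and -0.691 with equal FPKM sums. The 6 points are the same libraries of 2 agents each time, and the values are given as a description. Among named or annotated genes averaging 10 FPKM or more, the pattern most like cat-1 was that of gst-4 (NCU10521; r = 0.983), at 198, 138 and 54.2 FPKM with staurosporine and 56.1, 38.3 and 33.3 FPKM with DMSO. NCU00838, a 3-dehydroshikimate dehydratase gene, and NCU04657, a 1-aminocyclopropane-1-carboxylate deaminase gene, followed with 0.983 and 0.980. For cat-2 the nearest were the acyl-CoA dehydrogenase gene acd-2, the oxidoreductase gene NCU09821 and the exocyst gene NCU09313 (r = 0.994 each). For cat-3 they were NCU00137, a single-stranded DNA binding protein gene (0.999), NCU06768, a gene of a large-subunit ribosomal protein (0.999), and NCU03148, encoding the beta subunit of the nascent polypeptide-associated complex (0.998). FPKM of NCU03148 were 1091, 630 and 1103 with staurosporine and 2274, 1999 and 2280 with DMSO.

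For cat-4 the nearest patterns were those of the WD domain gene NCU02570 (r = 0.942), asl-1 (0.928) and the exonuclease gene NCU02961 (0.916), all lower in r than for the other members. For sod-1 they were NCU03296 (an F1 ATPase assembly gene, 0.992), NCU06914 (histidyl-tRNA synthetase, 0.992) and NCU08275 (an aromatic amino acid decarboxylase, 0.987). For sod-2 they were NCU01914 (a sorting nexin, 0.993), the thiazole synthesis gene NCU06110 (0.991) and NCU01183 (a GTP-binding protein, 0.988). With equal FPKM sums r was 0.309 for NCU06110 and 0.750 for NCU01183, and at least 0.896 for every other gene named here as most like a member. The search covered 4667 genes, the member itself left out.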

How the data were processed

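Libraries from poly(A) RNA, 1 per culture, gave 50 bp single reads. The submitters' processing notes name TopHat2 2.0.4, Cufflinks 2.0.2 and Cuffdiff. For the genome build, the version is not given in the sources used here. Per the file headers, the authors deposited 5 tables with FPKM of 2 libraries each, their fold and log2 ratio, and p and q values. They hold 9691 genes. Media under staurosporine were compared here from the FPKM of different tables. Where tables share a library, its FPKM were the same (0 genes differing). Columns were assigned by name; those naming no medium or no agent were taken as standard medium or DMSO. Read depth is unknown, and no counting interval is given.

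Here log2(FPKM + 1) was fitted with limma 3.58.1 in R 4.3.3 (terms for medium and agent, two-sided, variance trend on the mean level) for genes averaging 1 FPKM or more, which all 6 members passed. The 3 media served as repeats of the agent, so any dependence on medium counts as spread. The fit was also run on simulated data with the same change in every medium. That run does not cover a response that depends on medium. Calls required an adjusted p below 0.05 and an absolute log2 ratio of at least 1. The separate cultures behind the libraries are not described further in the labels.

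Members and lists were chosen with earlier results of these data known. Named genes are the 6 members, all of the dismutase, NADPH oxidase and regulator lists, the 4 with the largest absolute mean ratio in the other lists, with the remaining conidia markers and NCU07851 added after their values were seen, and the 3 genes most like each member. Settings varied were the pseudocount (0.1 or 5), the filter (none or a mean FPKM of 10), centring on the median, equal FPKM sums, the authors' testable genes, an unpaired fit, leaving out 1 medium, no minimum fold and a log2 ratio of at least 2. Protein and promoter sequences were not used here. Gene names came from the tables and RefSeq (NC12). Python 3.11.15 with pandas 2.3.3, numpy 2.4.6 and matplotlib 3.10.9 was used.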

Additional observations from a re-analysis of the deposited data

Results flagged for a closer look

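The staurosporine ratio of cat-4 lay on opposite sides of 0 in different media, at -0.57 in 0 Ca2+ medium and -0.05 in standard medium, against 0.58 in 20 mM CaCl2 medium. With equal FPKM sums the 3 ratios were -0.19, 0.76 and 1.11, so the sign in standard medium turned and the ratio in 20 mM CaCl2 medium passed 1. Each value is 1 library against 1, and the difference was not tested.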

How the results depend on the processing

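The number of members passing in limma over the media was 0 as reported and in most settings; it was 1 (cat-1) with equal FPKM sums, and between 0 and 2 when 1 medium was left out. The number of all genes passing, 12 as reported, was 6 (pseudocount 0.1), 0 (pseudocount 5, unfiltered genes, or median centring), 26 with equal FPKM sums, and between 0 and 576 when 1 medium was left out. The mean ratios of cat-1, cat-2 and cat-3 kept their sign in every setting run, cat-2 and cat-4 not being tested at a mean FPKM of at least 10. The sign of cat-4 over the media turned with centring (0.15), equal sums (0.56), without the 0 Ca2+ pair (0.27) and without the standard pair (0.01), its range when 1 medium was left out being -0.31 to 0.27, and that of sod-2 with equal sums (0.19). For the calcium media, cat-4 and sod-2 turned with equal sums (-0.21 and -0.19 for 0 Ca2+, -0.17 and -0.22 for 20 mM CaCl2, each against standard), and sod-2 with centring in 20 mM CaCl2 against 0 Ca2+ (0.05); none of these passed. Equal sums were applied to the gene lists and correlations after the data were seen: the median of the peroxide removal list was then 0.24, against -0.39 as deposited, and r of cat-3 with sod-2 was -0.691.

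Counts of members in comparisons of 2 libraries moved as follows. The share of all genes counted at each setting is not given here, so these counts describe the members only. With a pseudocount of 0.1, 2 were higher with staurosporine in 0 Ca2+ against standard medium. With a pseudocount of 5, 1 was higher with staurosporine in standard medium, 0 with DMSO and 0 with staurosporine in 0 Ca2+ against standard medium, and 1 was lower with staurosporine in 20 mM CaCl2 against standard medium. With the filter raised to 10 FPKM, 1 was higher with staurosporine in 0 Ca2+ and in standard medium. In 20 mM CaCl2, 0 were higher. In every comparison with standard medium that had counted 1 as higher, 0 were, and 1 was lower with staurosporine in 20 mM CaCl2. These counts fell because members went untested, and the ratios of those still tested were unchanged. Left out were cat-2 and cat-4 throughout, and cat-1 for staurosporine over DMSO in 20 mM CaCl2. The filter also removed cat-1 from the DMSO comparisons with standard medium, and cat-3 from those with staurosporine. With centring, 2 were higher with staurosporine in 0 Ca2+ and 1 lower in 20 mM CaCl2, each against standard medium. With equal sums, 1 was lower with staurosporine in standard medium and 2 were higher in 20 mM CaCl2. That rescaling raised the ratios of all genes in these media by a median of 0.87 and 0.55 (log2). With a log2 ratio of at least 2, 1 was higher and 1 lower in standard medium, 0 were higher in 20 mM CaCl2, and 0 were higher or lower in the comparisons with standard medium. No paired analysis by replicate number was possible because each group has 1 library; the fit without the medium term called 0 members. Unknown depth limits low genes such as cat-2 most.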

Other observations

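Per 1000 FPKM of sod-1 and sod-2 together, the 4 catalases summed to 56.6, 53.1 and 33.3 FPKM with staurosporine in 0 Ca2+, standard and 20 mM CaCl2 medium, against 33.3, 24.1 and 33.3 FPKM with DMSO. This ratio is free of library scaling and equal for both agents in 20 mM CaCl2 medium. The FPKM of sod-1 was 73.2, 38.4 and 39.5 times that of sod-2 with staurosporine, against 61.6, 67.3 and 50.3 times with DMSO. None of the 12 protein-coding neighbours of the 6 genes overlapped its member in the RefSeq table. Next to cat-3, the nucleoside transporter gene NCU00356 had log2 ratios of 1.71, 0.88 and -0.12 with staurosporine in the 3 media. Next to cat-4, NCU05170 was at 3.04, 1.43 and 11.6 FPKM with staurosporine, against 20.6, 20.9 and 37.0 FPKM with DMSO. These values were chosen after they were seen.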
